A study of Mus musculus with 24 samples.

Results

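The genes described here are 32 genes of sterol and fatty acid synthesis and of its control by the SREBP transcription factors. They were taken by mouse gene symbol from the 31062 features of the deposited count tables. The sterol branch holds 18 of them (Acat2, Hmgcs1, Mvk, Pmvk, Mvd, Idi1, Fdps, Fdft1, Sqle, Lss, Cyp51, Tm7sf2, Msmo1, Nsdhl, Hsd17b7, Ebp, Sc5d and Dhcr7). The fatty acid branch holds 9 (Acly, Acss2, Acaca, Fasn, Scd1, Scd2, Elovl6, Fads1 and Fads2), and 5 are regulators (Srebf1, Srebf2, Scap, Insig1 and Insig2). All 32 were protein-coding genes on the GRCm38 build and all passed the filter on low counts, so each was among the 14622 genes tested.

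Sequencing of poly-A RNA gave 24 libraries. All came from the mouse ovarian cancer line ID8 in a p53-/- form, so every group carried the p53 deletion. The 8 groups of 3 libraries were Ifngr1-KO cells in ultra-low attachment (ULA) plates with IFN-gamma or PBS, Ifngr1-KO cells on regular adherent plates with IFN-gamma or PBS, and the sgNTC control cells in the same 4 conditions. IFN-gamma was recombinant mouse protein at 100 ng/ml, given with PBS as its vehicle control for the last 24 of 48 hours in culture. Ifngr1 encodes the ligand-binding chain of the IFN-gamma receptor. The labels name 1 line of each genotype, with no word on whether it is a clone, and dead cells were taken out of ULA wells only. A difference between genotypes and any other difference between those lines cannot be told apart, nor can the culture plate and that handling step.

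SREBPs are made as precursors held in the endoplasmic reticulum by SCAP and the INSIG proteins. When membrane sterol is low, SCAP carries the precursor to the Golgi, where proteases release the part that enters the nucleus and switches on its target genes. SREBP-2, from Srebf2, mainly drives cholesterol synthesis and uptake, and SREBP-1, from Srebf1, mainly drives fatty acid synthesis. Insig1 is itself an SREBP target. The RNA levels given here do not measure that processing step.

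The deposited tables held 33494774 to 63154942 counts a library, in which each mate of a pair is 1 count. Ifngr1 RNA ran from 13.3 to 17.0 CPM (counts per 1000000 counts of the library, with library totals scaled by TMM) in the 12 Ifngr1-KO libraries and from 31.7 to 48.1 CPM in the 12 sgNTC libraries. The Cas9 row of the tables ran from 65.0 to 116 CPM in Ifngr1-KO libraries and from 1060 to 2177 CPM in sgNTC libraries. Of 10 epithelial and mesothelial markers, Krt8, Krt18, Krt19, Msln and Wt1 were abundant and Epcam had no count in any library. Krt7 reached at most 0.51 CPM, Cdh1 1.02 CPM, Pax8 0.204 CPM and Upk3b 8.60 CPM in any library. The summed level ran from 2519 to 4469 CPM in ULA libraries and from 1727 to 2179 CPM in adherent ones. In sgNTC cells with PBS, Krt8, Krt18, Krt19 and Wt1 were higher in ULA than in adherent cells. Msln and Upk3b were lower in those ULA cells, at log2 fold changes of -1.13 and -1.85. The 5 macrophage markers summed to 5.53 to 23.5 CPM in ULA libraries and 2.11 to 7.65 CPM in adherent ones, with Ptprc, Adgre1 and Lyz2 at 0 in most groups and at most 0.149 CPM in any library. Of those 5, only Cd68 and Csf1r passed the filter, and both rose in ULA cells of both lines, as did Pecam1 of the endothelial list, while Adipoq of the adipocyte list rose in Ifngr1-KO ULA cells. Their part in the results below was not tested. Cd68 had 16.3 to 20.9 CPM in Ifngr1-KO ULA and 5.52 to 7.65 CPM in Ifngr1-KO adherent cells with PBS, against 6.70 to 7.24 CPM in sgNTC ULA and 3.07 to 3.52 CPM in sgNTC adherent cells. Markers of endothelium stayed at or below 5.20 CPM in sum, those of erythroid cells at or below 1.44 CPM and those of adipocytes at or below 0.766 CPM. Replicate 2 of Ifngr1-KO ULA cells with IFN-gamma and replicate 3 of Ifngr1-KO adherent cells with PBS stood apart from their groups. As chi-square per gene between pairs of libraries, the first had 21.87 and 27.52, against 7.94 for the rest of its group. The second had 21.18 and 20.91, against 7.75 for the rest of its group. No pair within the other groups exceeded 16.14. Results that rest on the libraries that stood apart are given with and without them.

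In PBS, sterol synthesis RNA was lower in ULA than in adherent cells of both lines, and the gap was smaller in Ifngr1-KO cells. In edgeR's quasi-likelihood F test, with p adjusted by Benjamini-Hochberg over all tested genes, 16 of 18 sterol members fell and 2 rose in Ifngr1-KO ULA cells, and 17 of 18 fell and 1 rose in sgNTC ULA cells. The median log2 fold change over the branch was -0.77 in Ifngr1-KO cells and -1.91 in sgNTC cells, beside a median of -0.0036 and 0.031 over all tested genes. Among all 14622 tested genes, 31.1% fell and 29.6% rose in Ifngr1-KO cells, and 32.1% fell and 32.5% rose in sgNTC cells. Mitochondrially encoded genes, whose share can mark RNA or cell quality, took 3.64% to 3.87% of counts in Ifngr1-KO ULA and 2.185% to 2.45% in Ifngr1-KO adherent libraries with PBS, against 5.09% to 5.66% in sgNTC ULA and 2.49% to 2.77% in sgNTC adherent libraries. That share was thus highest in the group with the largest fall, and its part in the result was not tested. As bulk libraries, these values cannot tell apart fewer cells that express a gene from less RNA per cell. The fall exceeded 2-fold for 5 of 18 members in Ifngr1-KO cells and for 14 of 18 in sgNTC cells, and exceeded 4-fold for 2 in Ifngr1-KO cells and 8 in sgNTC cells.

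**Figure D1:**
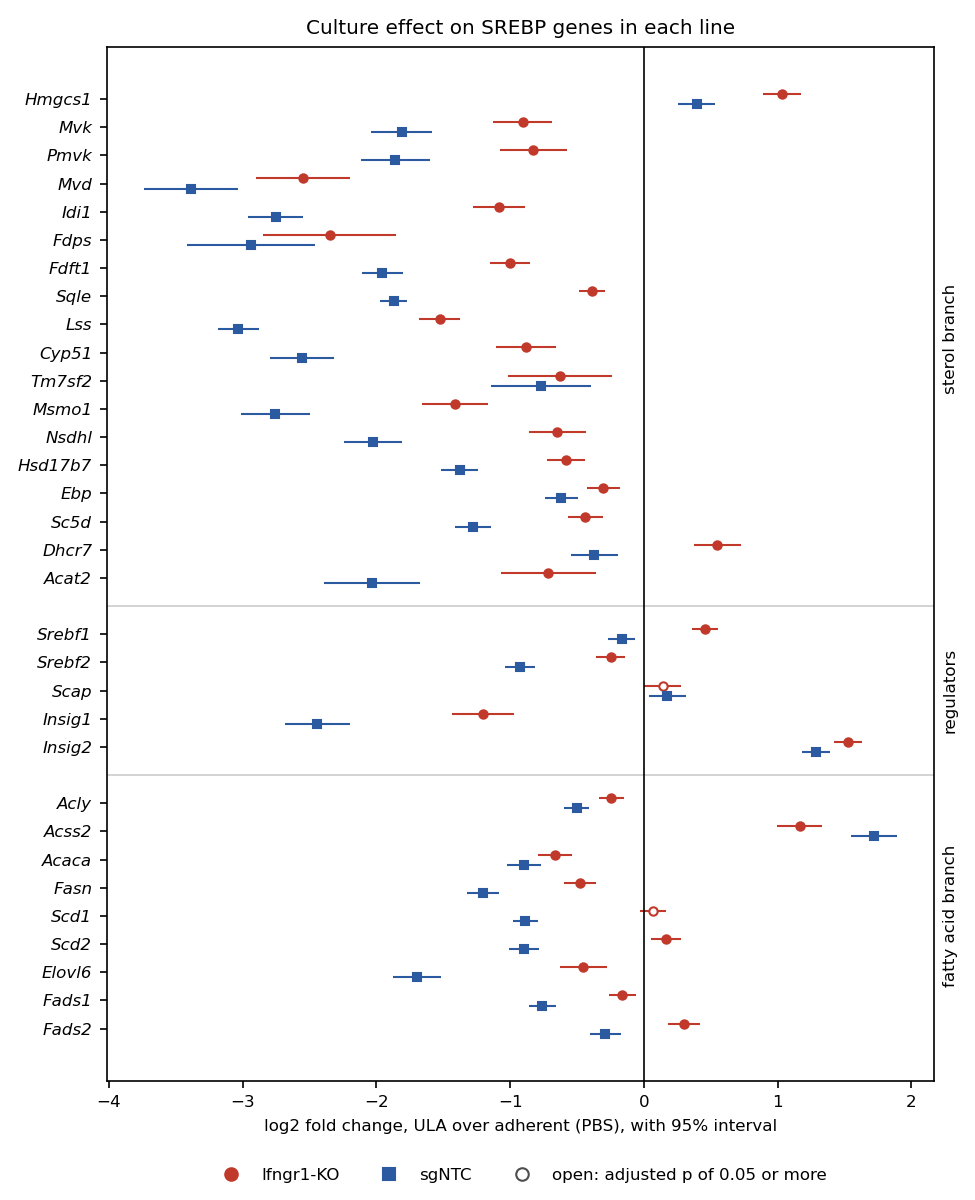
Log2 fold change of ULA over adherent cells in PBS for the 32 genes, with 95% intervals from the edgeR fit, in Ifngr1-KO cells (circles) and sgNTC cells (squares), with open symbols for an adjusted p of 0.05 or more. Mvd lies furthest to the left in both lines, at -2.55 in Ifngr1-KO cells and -3.38 in sgNTC cells, while Hmgcs1, Insig2 and Acss2 lie right of 0 in both.

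Mvd, which makes isopentenyl diphosphate by decarboxylation at the end of the mevalonate steps, fell most of all members in both lines. Its level was 6.86, 9.65 and 11.4 CPM in Ifngr1-KO ULA cells, against 53.2, 52.98 and 57.5 CPM in Ifngr1-KO adherent cells. In the control line it was 7.91, 7.72 and 9.81 CPM in sgNTC ULA cells, against 83.4, 92.7 and 88.3 CPM in sgNTC adherent cells. The ULA and adherent libraries did not overlap in either line, and the ULA values of the lines overlapped. The log2 fold change was -2.55 ± 0.17 (SE) in Ifngr1-KO cells (adjusted p = 3.28e-11) and -3.38 ± 0.17 in sgNTC cells (adjusted p = 2.57e-13). Lss, which closes squalene epoxide into lanosterol, had 41, 37.7 and 41.8 CPM in Ifngr1-KO ULA cells, against 113, 119.7 and 115 CPM in Ifngr1-KO adherent cells. In the control line Lss had 28.8, 29.4 and 29.7 CPM in sgNTC ULA cells, against 239, 234 and 245 CPM in sgNTC adherent cells. Again no ULA library reached an adherent one. The log2 fold change of Lss was -1.53 ± 0.07 in Ifngr1-KO cells (adjusted p = 1.37e-18) and -3.03 ± 0.08 in sgNTC cells (adjusted p = 1.97e-26).

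Fdps, the farnesyl diphosphate synthase, was the least abundant member per length in both ULA groups. It had 1.28, 0.792 and 2.06 CPM in Ifngr1-KO ULA cells, against 7.44, 5.66 and 8.04 CPM in Ifngr1-KO adherent cells. In sgNTC cells the values were 1.77, 1.10 and 1.64 CPM in sgNTC ULA cells, against 9.84, 11.8 and 13.2 CPM in sgNTC adherent cells. The cultures were separate in both lines, at few counts, and 26.7% of its exon bases overlap another annotated gene. No multi-mapping or overlap option was set, so reads on shared bases would be missing from its counts. Its low level may thus be in part a limit of counting, which was not tested. Its log2 fold change was -2.35 ± 0.25 in Ifngr1-KO cells (adjusted p = 5.91e-10) and -2.94 ± 0.23 in sgNTC cells (adjusted p = 1.13e-12). Msmo1, the sterol methyl oxidase that acts on methyl groups left after the Cyp51 step, had 113, 126 and 127 CPM in Ifngr1-KO ULA cells, against 327, 309 and 339 CPM in Ifngr1-KO adherent cells. The control line had 67.1, 61.2 and 71.5 CPM in sgNTC ULA cells, against 452, 473 and 424 CPM in sgNTC adherent cells. Both pairs of groups were far apart. For Msmo1 the log2 fold change was -1.41 ± 0.12 in Ifngr1-KO cells (adjusted p = 2.46e-09) and -2.75 ± 0.12 in sgNTC cells (adjusted p = 1.03e-13).

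Hmgcs1 went the other way. It encodes the cytosolic HMG-CoA synthase, an early step of the mevalonate pathway, and was the only sterol member that rose in both lines. Hmgcs1 had 396, 427 and 438 CPM in Ifngr1-KO ULA cells, against 199.8, 199 and 216 CPM in Ifngr1-KO adherent cells. In sgNTC cells it had 574, 525 and 565 CPM in sgNTC ULA cells, against 426, 409.5 and 430.2 CPM in sgNTC adherent cells. ULA libraries were all above the adherent ones in each line, and the lowest group was the Ifngr1-KO adherent one. The log2 fold change was 1.04 ± 0.07 in Ifngr1-KO cells (adjusted p = 2.52e-14) and 0.40 ± 0.07 in sgNTC cells (adjusted p = 7.31e-06). An annotated neighbour, Gm48342, shares 12.1% of its exon bases. Dhcr7, a reductase of a final step to cholesterol, differed in direction between the lines. It had 38.3, 38.3 and 45.05 CPM in Ifngr1-KO ULA cells, against 29.2, 27.9 and 26.01 CPM in Ifngr1-KO adherent cells. The control line had 28.3, 26.3 and 25.4 CPM in sgNTC ULA cells, against 35.2, 35.9 and 32.3 CPM in sgNTC adherent cells. ULA values were all above adherent ones in Ifngr1-KO cells and all below them in sgNTC cells. Dhcr7 had a log2 fold change of 0.55 ± 0.09 in Ifngr1-KO cells (adjusted p = 8.89e-07) and -0.37 ± 0.08 in sgNTC cells (adjusted p = 0.000281).

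The other early enzymes of the branch fell in both lines. Acat2, the thiolase that joins acetyl-CoA units at the entry, had 29.9, 37.3 and 31.8 CPM in Ifngr1-KO ULA cells, against 55.9, 51.9 and 54.6 CPM in Ifngr1-KO adherent cells. In sgNTC cells Acat2 had 20.7, 20.4 and 21.8 CPM in sgNTC ULA cells, against 77.6, 94.4 and 84.99 CPM in sgNTC adherent cells. The 4 groups of Acat2 did not overlap. Mevalonate kinase, Mvk, had 15.5, 19.1 and 17.4 CPM in Ifngr1-KO ULA cells, against 27.2, 34.5 and 35.9 CPM in Ifngr1-KO adherent cells. In sgNTC cells Mvk had 11.2, 9.45 and 9.69 CPM in sgNTC ULA cells, against 32.7, 37.6 and 36.6 CPM in sgNTC adherent cells. The adherent groups of the lines overlapped, while the sgNTC ULA libraries were the lowest. Phosphomevalonate kinase, Pmvk, had 13.4, 14.2 and 16.4 CPM in Ifngr1-KO ULA cells, against 24.7, 24.8 and 28.6 CPM in Ifngr1-KO adherent cells. In sgNTC cells Pmvk had 8.85, 9.15 and 10.1 CPM in sgNTC ULA cells, against 30.3, 33.5 and 37.9 CPM in sgNTC adherent cells. Both kinases had their lowest values in sgNTC ULA and their highest mean in sgNTC adherent cells. Idi1, the isomerase that supplies dimethylallyl diphosphate, had 36.9, 35.5 and 44.4 CPM in Ifngr1-KO ULA cells, against 81.9, 81.2 and 84.9 CPM in Ifngr1-KO adherent cells. In sgNTC cells Idi1 had 18.8, 17.6 and 22.4 CPM in sgNTC ULA cells, against 135, 131 and 129 CPM in sgNTC adherent cells. The 4 groups of Idi1 did not overlap. Log2 fold changes for these 4 genes lay between -1.09 for Idi1 and -0.71 for Acat2 in Ifngr1-KO cells, and between -2.75 for Idi1 and -1.81 for Mvk in sgNTC cells.

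The squalene enzymes diverged between the lines. Fdft1, the squalene synthase, had 61.4, 69.03 and 68.4 CPM in Ifngr1-KO ULA cells, against 127, 132 and 139 CPM in Ifngr1-KO adherent cells. In sgNTC cells Fdft1 had 48.6, 46.1 and 50.8 CPM in sgNTC ULA cells, against 176, 198 and 189.9 CPM in sgNTC adherent cells. The order of groups was the same as for the kinases, without overlap, and 18.3% of the exon bases of Fdft1 are shared with Ctsb. Squalene epoxidase, Sqle, a rate-limiting enzyme of the later pathway, had 248, 259 and 266 CPM in Ifngr1-KO ULA cells, against 328, 340.4 and 344 CPM in Ifngr1-KO adherent cells. In sgNTC cells Sqle had 104, 113 and 115 CPM in sgNTC ULA cells, against 398, 410.2 and 405 CPM in sgNTC adherent cells. Ifngr1-KO ULA libraries held more than 2-fold the Sqle RNA of sgNTC ULA libraries, and all groups were separate. The log2 fold change of Sqle was -0.39 ± 0.05 in Ifngr1-KO cells (adjusted p = 1.16e-08) and -1.87 ± 0.05 in sgNTC cells (adjusted p = 1.87e-26).

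After lanosterol, Cyp51, the lanosterol demethylase, had 153, 164 and 178 CPM in Ifngr1-KO ULA cells, against 299, 302 and 309 CPM in Ifngr1-KO adherent cells. In sgNTC cells Cyp51 had 88.8, 85.5 and 102 CPM in sgNTC ULA cells, against 541, 544 and 536 CPM in sgNTC adherent cells. It was the most abundant sterol member per length in sgNTC adherent cells and dropped below Hmgcs1 and Ebp in sgNTC ULA cells. Nsdhl, a sterol dehydrogenase, had 26.3, 30.9 and 33.6 CPM in Ifngr1-KO ULA cells, against 49.04, 46.8 and 46.5 CPM in Ifngr1-KO adherent cells. In sgNTC cells Nsdhl had 19.9, 17.8 and 24.6 CPM in sgNTC ULA cells, against 83.3, 85.1 and 84.7 CPM in sgNTC adherent cells. Hsd17b7, the reductase that follows Nsdhl, had ULA levels that did not separate the lines. It had 37.2, 37.7 and 38.4 CPM in Ifngr1-KO ULA cells, against 55.5, 59.2 and 54.8 CPM in Ifngr1-KO adherent cells. In sgNTC cells Hsd17b7 had 37.6, 35.1 and 34.6 CPM in sgNTC ULA cells, against 91.3, 87.7 and 99.8 CPM in sgNTC adherent cells, so its ULA groups overlapped between the lines. Sc5d, a sterol desaturase, had 100.0, 106 and 109 CPM in Ifngr1-KO ULA cells, against 146, 147 and 133 CPM in Ifngr1-KO adherent cells. In sgNTC cells Sc5d had 66.7, 67.2 and 75.8 CPM in sgNTC ULA cells, against 169, 173 and 167 CPM in sgNTC adherent cells. The groups of Sc5d were separate within each line. Ebp, a sterol isomerase, moved little, with 75.7, 74.7 and 78.1 CPM in Ifngr1-KO ULA cells, against 88.8, 93.4 and 99.8 CPM in Ifngr1-KO adherent cells. In sgNTC cells Ebp had 54.6, 54.9 and 63.4 CPM in sgNTC ULA cells, against 84.1, 94.2 and 86.5 CPM in sgNTC adherent cells. Its log2 fold change was -0.30 ± 0.06 in Ifngr1-KO cells (adjusted p = 4.96e-05) and -0.62 ± 0.06 in sgNTC cells (adjusted p = 6.53e-11). Tm7sf2, a sterol reductase, had 4.15, 4.88 and 3.23 CPM in Ifngr1-KO ULA cells, against 5.92, 6.34 and 6.67 CPM in Ifngr1-KO adherent cells. In sgNTC cells Tm7sf2 had 6.56, 4.89 and 4.86 CPM in sgNTC ULA cells, against 9.13, 8.50 and 10.3 CPM in sgNTC adherent cells. Its cultures were separate in both lines, and 47.2% of its exon bases overlap Gm28374 or Vps51. Its log2 fold change was -0.63 ± 0.19 in Ifngr1-KO cells (adjusted p = 0.00501), a call lost at an adjusted p of 0.0568 without replicate 3 of the Ifngr1-KO ULA group.

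**Figure D2:**
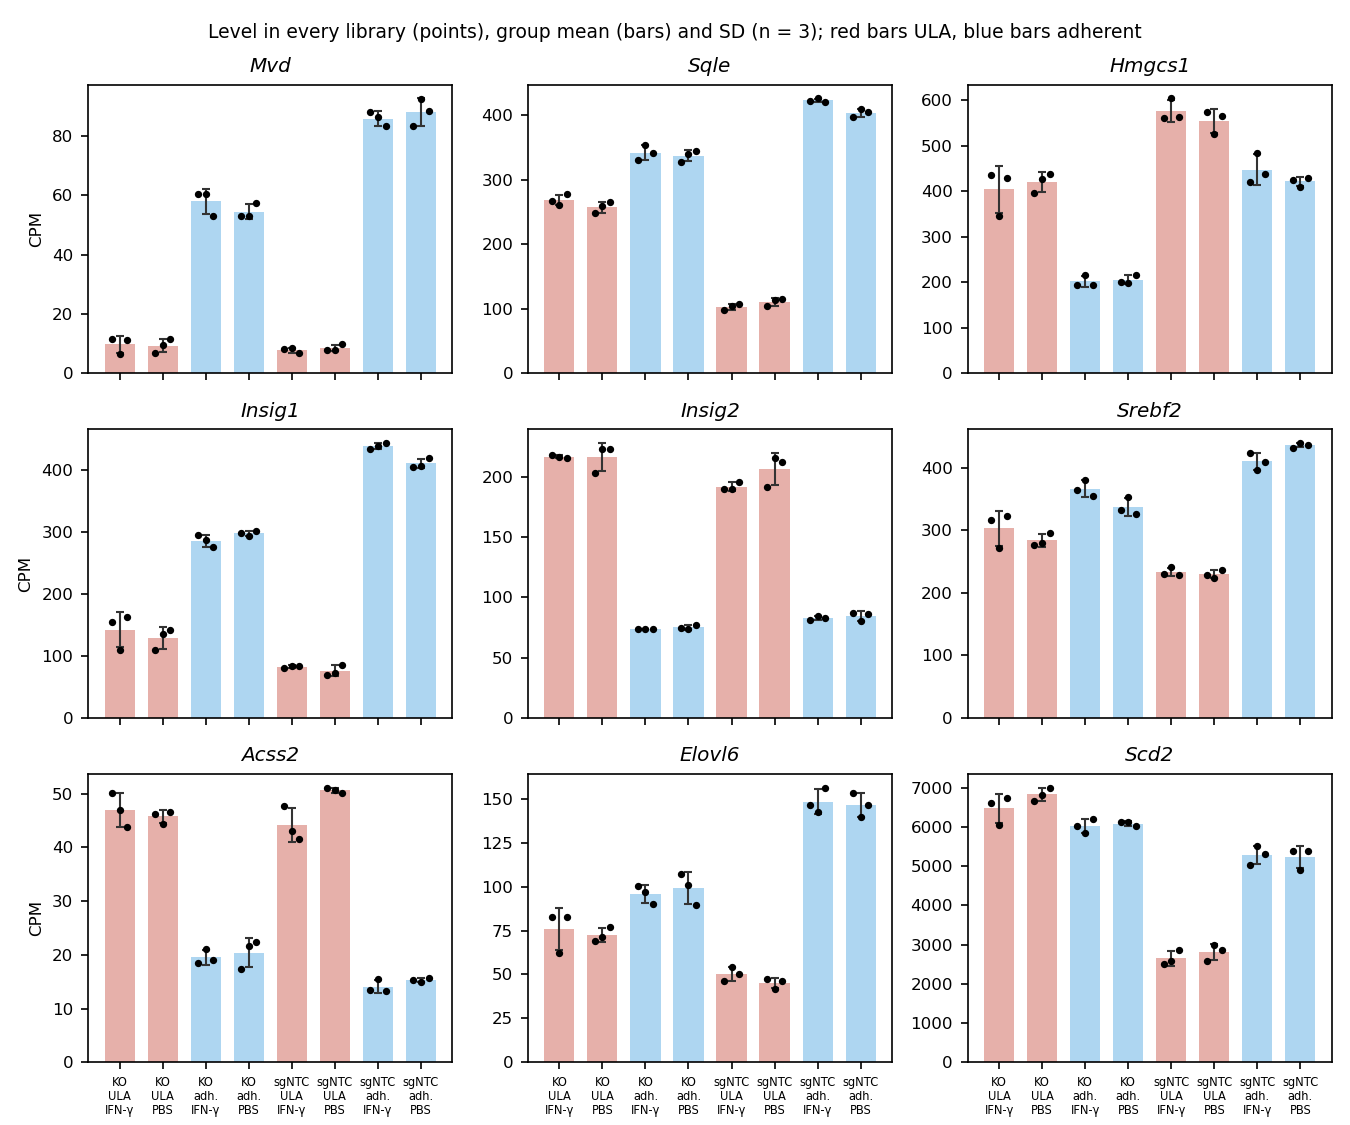
Level in CPM of 9 genes in all 24 libraries (points), with group means (bars) and SD (n = 3), for Ifngr1-KO (KO) and sgNTC cells in ULA or adherent (adh.) plates with IFN-gamma or PBS. Mvd is low in every ULA group, Sqle and Scd2 are lowest in the sgNTC ULA groups, Insig2 and Acss2 are high in every ULA group, and matching IFN-gamma and PBS groups lie close together.

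The stretches before the starts of the 4 genes with the largest change, 2 from each branch, in sgNTC cells are shown because SREBPs act with the cofactors NF-Y and Sp1 at nearby sites. The genes are Mvd (chr8:122433601-122443422, minus strand), Lss (chr10:76531588-76557138, plus strand), Acss2 (chr2:155517948-155585724, plus strand) and Elovl6 (chr3:129532355-129638495, plus strand), and the sequences come from the RefSeq promoter table of GRCm38.p6. Each is read 5′ to 3′ on the strand of the gene and lies within 250 bases before its RefSeq start, without bases that another annotation puts in an exon, at chr8:122443423-122443672, chr10:76531355-76531587, chr2:155517793-155517947 and chr3:129532136-129532354. Capitals mark letters that match CCAAT (NF-Y) or GGGCGG (Sp1) on either strand, and neither TCACNCCAC (a core of the sterol regulatory element) nor CACGTG (an E-box) occurs in them.
Mvd: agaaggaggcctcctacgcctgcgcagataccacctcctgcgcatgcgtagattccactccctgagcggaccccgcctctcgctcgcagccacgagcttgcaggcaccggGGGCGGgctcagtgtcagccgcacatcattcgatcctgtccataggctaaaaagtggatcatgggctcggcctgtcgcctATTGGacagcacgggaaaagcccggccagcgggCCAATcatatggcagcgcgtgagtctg
Lss: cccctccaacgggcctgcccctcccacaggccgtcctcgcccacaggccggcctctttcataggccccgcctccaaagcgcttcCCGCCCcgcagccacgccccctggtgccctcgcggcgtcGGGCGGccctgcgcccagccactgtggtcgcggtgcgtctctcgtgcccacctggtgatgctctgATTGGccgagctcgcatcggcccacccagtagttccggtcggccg
Acss2: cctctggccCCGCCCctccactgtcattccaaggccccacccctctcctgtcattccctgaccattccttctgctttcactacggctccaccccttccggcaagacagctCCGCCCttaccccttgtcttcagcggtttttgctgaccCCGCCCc
Elovl6: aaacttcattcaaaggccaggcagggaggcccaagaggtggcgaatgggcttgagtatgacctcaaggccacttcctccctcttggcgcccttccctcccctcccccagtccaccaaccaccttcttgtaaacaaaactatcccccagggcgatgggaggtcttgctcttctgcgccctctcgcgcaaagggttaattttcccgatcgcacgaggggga

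The Mvd stretch held 2 CCAAT and 1 GGGCGG, the Lss stretch 1 CCAAT and 2 GGGCGG, the Acss2 stretch 3 GGGCGG, and the Elovl6 stretch had no match. The part of the Acss2 window that is not printed held 1 more GGGCGG and 1 CCAAT. The promoter table held 34 promoters of 26 of the 32 members. CCAAT occurred within 250 bases before the start in 14 of 18 sterol promoters (77.8%), in 2 of 6 fatty acid promoters (33.3%) and in 5 of 10 regulator promoters, against 35.3% of 13840 promoters of tested genes and 33.8% of all 32851 promoters. GGGCGG occurred in 83.3% of sterol, 50.0% of fatty acid and 70.0% of regulator promoters, against 54.0% of promoters of tested genes and 32.7% of all. TCACNCCAC was present in 1 member promoter, that of Hmgcs1, and in 1.05% of all promoters. CACGTG was present in 5 member promoters (Dhcr7, Hsd17b7, Sc5d, Insig1 and Scap), 14.7% of them, and in 6.02% of all. None of these motifs overlapped another in the printed stretches, and a match is a description of the letters, not evidence of binding.

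Among the regulators, the INSIG genes moved in opposite directions. Insig1 had 109, 136 and 142 CPM in Ifngr1-KO ULA cells, against 298, 293 and 301 CPM in Ifngr1-KO adherent cells. In sgNTC cells Insig1 had 68.8, 72.9 and 85.5 CPM in sgNTC ULA cells, against 405, 407 and 419 CPM in sgNTC adherent cells. It was low in every ULA library, and lowest in the sgNTC ones. For Insig1 the log2 fold change was -1.21 ± 0.11 in Ifngr1-KO cells (adjusted p = 7.1e-09) and -2.44 ± 0.11 in sgNTC cells (adjusted p = 1.14e-13). Insig2, which unlike Insig1 is not a classical SREBP target, had 203, 223 and 224 CPM in Ifngr1-KO ULA cells, against 74.3, 73.8 and 77.3 CPM in Ifngr1-KO adherent cells. In sgNTC cells Insig2 had 191, 215 and 213 CPM in sgNTC ULA cells, against 87.2, 80.1 and 86.2 CPM in sgNTC adherent cells. ULA libraries exceeded adherent ones by more than 2-fold in both lines. Insig2 had a log2 fold change of 1.53 ± 0.05 in Ifngr1-KO cells (adjusted p = 2.33e-23) and 1.29 ± 0.05 in sgNTC cells (adjusted p = 1.58e-21).

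Srebf2 had 276, 279 and 296 CPM in Ifngr1-KO ULA cells, against 331, 352 and 326 CPM in Ifngr1-KO adherent cells. In sgNTC cells Srebf2 had 228, 224 and 236 CPM in sgNTC ULA cells, against 432, 439 and 437 CPM in sgNTC adherent cells. It fell in both lines, by 0.25 on the log2 scale in Ifngr1-KO cells (adjusted p = 0.000148) and by 0.93 in sgNTC cells (adjusted p = 5.91e-17). Srebf1 rose in Ifngr1-KO cells and fell slightly in sgNTC cells. Srebf1 had 225, 226 and 238 CPM in Ifngr1-KO ULA cells, against 157, 168 and 177 CPM in Ifngr1-KO adherent cells. In sgNTC cells Srebf1 had 137, 139.9 and 136 CPM in sgNTC ULA cells, against 155, 147 and 160.1 CPM in sgNTC adherent cells. No library of one culture overlapped the other within a line. The log2 fold change of Srebf1 was 0.46 ± 0.05 in Ifngr1-KO cells (adjusted p = 5.48e-10) and -0.17 ± 0.05 in sgNTC cells (adjusted p = 0.00388), and the sgNTC call was lost, at -0.069 and an adjusted p of 0.241, when counts were scaled by library totals. Scap, the SREBP escort, moved little. Scap had 72.1, 68.5 and 70.9 CPM in Ifngr1-KO ULA cells, against 62.4, 71.5 and 58.02 CPM in Ifngr1-KO adherent cells. In sgNTC cells Scap had 73.2, 71.7 and 65.7 CPM in sgNTC ULA cells, against 62.4, 62.1 and 62.05 CPM in sgNTC adherent cells. Only the sgNTC difference passed the edgeR test with all libraries, at 0.18 ± 0.07 (adjusted p = 0.026), and that call was lost when any of 5 of the 6 libraries was left out, with adjusted p from 0.0547 to 0.0911. The Ifngr1-KO difference of Scap was called by DESeq2, at 0.18 (adjusted p = 0.0255). By edgeR it was called without replicate 2 of the Ifngr1-KO adherent group, at 0.25 (adjusted p = 0.00366).

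The fatty acid branch had smaller median changes than the sterol branch. In PBS, 5 of 9 members fell and 3 rose in Ifngr1-KO ULA cells, and 8 of 9 fell and 1 rose in sgNTC ULA cells. Set against the 31.1% of all tested genes that fell and 29.6% that rose in Ifngr1-KO cells, and the 32.1% and 32.5% in sgNTC cells, the share of members that rose in Ifngr1-KO cells was near the background. The median log2 fold change of the branch was -0.16 in Ifngr1-KO cells and -0.88 in sgNTC cells. In summed CPM the branch held 8887 ± 271 (SD, n = 3) in Ifngr1-KO ULA cells and 8373 ± 91.0 in Ifngr1-KO adherent cells, against 4319 ± 204 in sgNTC ULA cells and 7904 ± 332 in sgNTC adherent cells. That sum is mostly Scd2. Without Scd2 it was 2056 ± 106 in Ifngr1-KO ULA and 2291 ± 42.9 in Ifngr1-KO adherent cells, against 1504 ± 4.51 in sgNTC ULA and 2673 ± 50.5 in sgNTC adherent cells. The sterol branch summed to 1480 ± 76.7 CPM in Ifngr1-KO ULA and 2050 ± 42.9 CPM in Ifngr1-KO adherent cells, against 1188 ± 53.2 CPM in sgNTC ULA and 3109 ± 40.3 CPM in sgNTC adherent cells.

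**Figure D3:**
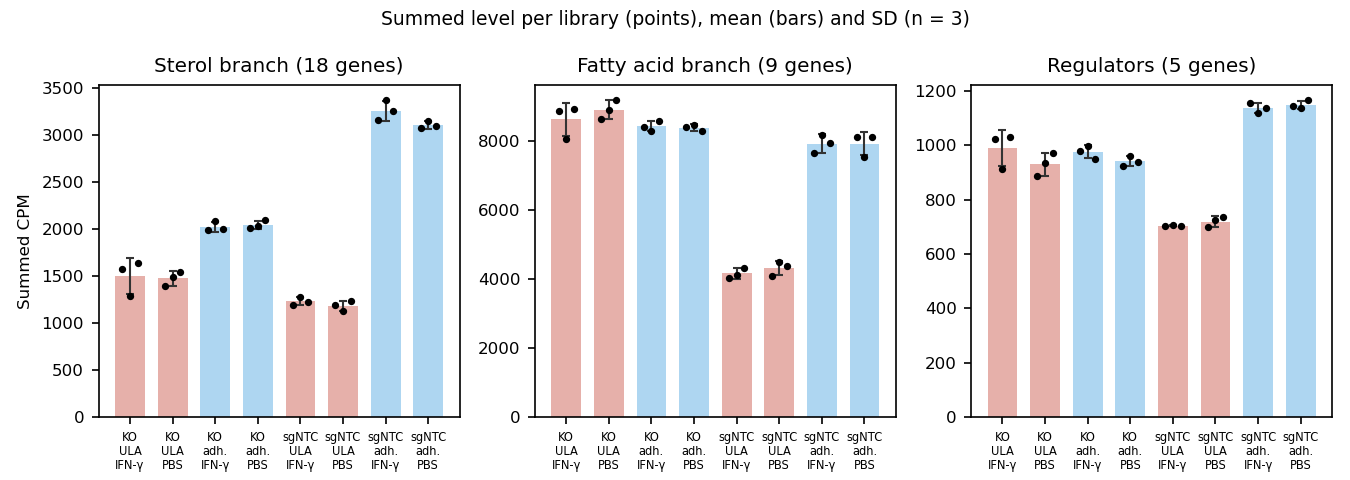
Summed CPM of the sterol branch, the fatty acid branch and the regulators in each library (points), with group means (bars) and SD (n = 3), for Ifngr1-KO (KO) and sgNTC cells in ULA or adherent (adh.) plates with IFN-gamma or PBS. The sgNTC ULA groups are lowest in all panels, and the fatty acid sum of Ifngr1-KO cells is about level between cultures, at 8887 CPM in ULA and 8373 CPM in adherent cells with PBS.

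Acss2, which makes cytosolic acetyl-CoA from acetate, was the only member of the branch that rose in both lines. Acss2 had 46.3, 44.4 and 46.6 CPM in Ifngr1-KO ULA cells, against 17.3, 21.6 and 22.3 CPM in Ifngr1-KO adherent cells. In sgNTC cells Acss2 had 51.1, 50.7 and 50.1 CPM in sgNTC ULA cells, against 15.4, 15.03 and 15.7 CPM in sgNTC adherent cells. The ULA libraries were all above the adherent ones, with the largest gap in sgNTC cells. For Acss2 the log2 fold change was 1.16 ± 0.08 in Ifngr1-KO cells (adjusted p = 2.36e-14) and 1.72 ± 0.09 in sgNTC cells (adjusted p = 6.86e-19). Its exons overlap those of Acss2os, Ggt7 and Gss over 9.1% of their bases. Acly, which makes the same product from citrate, had 211, 224 and 232 CPM in Ifngr1-KO ULA cells, against 261, 258 and 270.1 CPM in Ifngr1-KO adherent cells. In sgNTC cells Acly had 202, 186 and 189.8 CPM in sgNTC ULA cells, against 276, 270.5 and 272 CPM in sgNTC adherent cells. Both differences were calls, of -0.24 in Ifngr1-KO cells and -0.50 in sgNTC cells on the log2 scale. So of these genes Acss2 was higher and Acly lower in ULA cells of each line.

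The synthase steps fell together. Acaca, the acetyl-CoA carboxylase that commits carbon to fatty acids, had 79.9, 80.7 and 87.2 CPM in Ifngr1-KO ULA cells, against 133, 139.9 and 119.6 CPM in Ifngr1-KO adherent cells. In sgNTC cells Acaca had 81.05, 73.5 and 75.8 CPM in sgNTC ULA cells, against 149.5, 132 and 148 CPM in sgNTC adherent cells. Groups were separate in each line, and the lines overlapped within a culture. Fatty acid synthase, Fasn, had 355, 377 and 401 CPM in Ifngr1-KO ULA cells, against 523, 546 and 507 CPM in Ifngr1-KO adherent cells. In sgNTC cells Fasn had 286, 259 and 272 CPM in sgNTC ULA cells, against 619.7, 607 and 651 CPM in sgNTC adherent cells. Fasn had a log2 fold change of -0.48 ± 0.06 in Ifngr1-KO cells (adjusted p = 8.49e-09) and -1.20 ± 0.06 in sgNTC cells (adjusted p = 5.07e-19). Elovl6, which extends palmitate to stearate, fell most in this branch in sgNTC cells. Elovl6 had 68.8, 71.5 and 77.1 CPM in Ifngr1-KO ULA cells, against 107, 101 and 89.3 CPM in Ifngr1-KO adherent cells. In sgNTC cells Elovl6 had 47.4, 41.7 and 46.2 CPM in sgNTC ULA cells, against 153, 139 and 146 CPM in sgNTC adherent cells. Its log2 fold change was -0.45 ± 0.09 in Ifngr1-KO cells (adjusted p = 4.27e-05) and -1.70 ± 0.09 in sgNTC cells (adjusted p = 4.41e-16).

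The desaturase genes were all lower in sgNTC ULA cells and mixed in Ifngr1-KO ULA cells. Scd2, a stearoyl-CoA desaturase and the most abundant member per length in every group, had 6670, 6822 and 7001 CPM in Ifngr1-KO ULA cells, against 6122, 6111 and 6013 CPM in Ifngr1-KO adherent cells. In sgNTC cells Scd2 had 2585, 2987 and 2873 CPM in sgNTC ULA cells, against 5394, 4906 and 5393 CPM in sgNTC adherent cells. Its ULA libraries were the highest of the 4 groups in Ifngr1-KO cells and the lowest in sgNTC cells. The log2 fold change of Scd2 was 0.17 ± 0.06 in Ifngr1-KO cells (adjusted p = 0.00936) and -0.89 ± 0.06 in sgNTC cells (adjusted p = 4.57e-16). Scd1, its near relative, had 579.8, 592 and 625 CPM in Ifngr1-KO ULA cells, against 572, 576 and 567 CPM in Ifngr1-KO adherent cells. In sgNTC cells Scd1 had 385, 423 and 393 CPM in sgNTC ULA cells, against 755, 736 and 727 CPM in sgNTC adherent cells. Scd1 fell in sgNTC cells at -0.88 ± 0.05 (adjusted p = 6.29e-18), and its value in Ifngr1-KO cells was 0.07 ± 0.05 (adjusted p = 0.229). DESeq2 called Scd1 in Ifngr1-KO cells, at 0.11 (adjusted p = 0.0352). No option to count multi-mapping reads was set, so reads shared by several Scd genes would be missing from these counts. Fads1, a desaturase of polyunsaturated fatty acids, had 448, 493 and 508 CPM in Ifngr1-KO ULA cells, against 519.7, 560.1 and 539 CPM in Ifngr1-KO adherent cells. In sgNTC cells Fads1 had 329.6, 344 and 347 CPM in sgNTC ULA cells, against 576, 563 and 589 CPM in sgNTC adherent cells. The call in Ifngr1-KO cells, -0.16 ± 0.05, was lost without replicate 2 of the adherent group (adjusted p = 0.0933) or replicate 1 of the ULA group (adjusted p = 0.158). Fads2, which acts before Fads1, had 159.7, 179 and 183 CPM in Ifngr1-KO ULA cells, against 139, 138 and 146 CPM in Ifngr1-KO adherent cells. In sgNTC cells Fads2 had 126, 127 and 126 CPM in sgNTC ULA cells, against 158, 152 and 153 CPM in sgNTC adherent cells. Fads2 rose in Ifngr1-KO cells, by 0.30 ± 0.06 (adjusted p = 3.13e-05), and fell in sgNTC cells, at -0.29 ± 0.06 (adjusted p = 5.64e-05).

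The culture comparison was repeated in cells that had received IFN-gamma, in libraries separate from the PBS ones. In Ifngr1-KO cells 16 of 18 sterol members fell and 2 rose, again Hmgcs1 and Dhcr7, with a median of -0.76. In sgNTC cells 17 fell and Hmgcs1 rose, with a median of -1.99. Over all 32 members, 23 fell and 6 rose in Ifngr1-KO cells and 28 fell and 3 rose in sgNTC cells, where 30.9% of all tested genes fell and 29.3% rose in Ifngr1-KO cells, and 32% fell and 32.6% rose in sgNTC cells. Mvd had 11.5, 6.48 and 11.3 CPM in Ifngr1-KO ULA cells with IFN-gamma, against 60.4, 60.5 and 53.2 CPM in Ifngr1-KO adherent cells with IFN-gamma. In sgNTC cells with IFN-gamma Mvd had 7.997, 8.43 and 6.77 CPM in ULA, against 88.2, 86.4 and 83.2 CPM in adherent cells. All 18 sterol members had their lowest value of the Ifngr1-KO ULA IFN-gamma group in replicate 2, where the median ratio to the mean of the other 2 libraries was 0.745. Insig1, for instance, had 155, 109 and 162 CPM in that group. Scd2 was not called in Ifngr1-KO cells with IFN-gamma, at 0.10 ± 0.06 (adjusted p = 0.113). Without replicate 2 Scd2 was called, at 0.17 (adjusted p = 0.0106), as it was with both libraries that stood apart left out (0.15, adjusted p = 0.0229), by DESeq2 (adjusted p = 0.026) and with no filter on low counts (adjusted p = 0.029). Without replicate 2 the calls of Fads1 (adjusted p = 0.051), Acly (adjusted p = 0.12) and Tm7sf2 (adjusted p = 0.0877) were lost. The median over the 32 members in Ifngr1-KO cells was then -0.29, beside -0.39 with that library. In Ifngr1-KO cells Acly also lost its call with no filter (edgeR adjusted p = 0.0895) or only the compared groups (0.0841). That call was also lost without adherent replicate 1 (0.0506) or 2 (0.247). Tm7sf2 also lost its call without adherent replicate 2 (0.159) or ULA replicate 1 (0.0562). Acat2 lost its call with only the compared groups (0.0739). Scap, not called with all libraries, was called at other settings (0.00613 to 0.0396), DESeq2 among them.

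The size of the culture effect differed between the lines for most members. In the test of that difference, the effect in Ifngr1-KO cells minus that in sgNTC cells was positive and called for 28 of 32 members and negative and called for 1, Acss2, where 16.6% of all tested genes were called positive and 11.2% negative. Of the 16 sterol members that were lower in ULA cells of both lines, 14 were called as falling less in Ifngr1-KO cells. The largest differences were those of Cyp51, 1.67 ± 0.15 (adjusted p = 7.41e-08), and Idi1, 1.67 ± 0.13 (adjusted p = 3.45e-10). Lss differed by 1.50 ± 0.10 (adjusted p = 5.15e-13) and Sqle by 1.48 ± 0.07 (adjusted p = 2.38e-17). Expressed as a share of the adherent level, Sqle RNA in ULA cells was 76.3% in Ifngr1-KO cells and 27.4% in sgNTC cells. Fdps, Tm7sf2 and Scap were not called, with differences of 0.59 ± 0.34, 0.14 ± 0.26 and -0.04 ± 0.10. Without replicate 2 of the Ifngr1-KO ULA group edgeR called Fdps, at 0.88 (adjusted p = 0.0454). Among the regulators the difference was 1.24 ± 0.15 for Insig1 (adjusted p = 4.59e-06), 0.68 ± 0.08 for Srebf2 (adjusted p = 1.41e-08) and 0.62 ± 0.07 for Srebf1 (adjusted p = 1.61e-08). In the fatty acid branch Elovl6 differed by 1.25 ± 0.12 (adjusted p = 7.52e-09) and Scd2 by 1.06 ± 0.08 (adjusted p = 1.86e-12), while Acaca, at 0.24 ± 0.09 (adjusted p = 0.0424), lost its call without any of 6 libraries (adjusted p from 0.0544 to 0.119), among them the Ifngr1-KO adherent library that stood apart.

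Seen within each culture, the lines differed in opposite directions. In ULA cells with PBS, 13 of 18 sterol members were higher in Ifngr1-KO than in sgNTC cells and 1, Hmgcs1, was lower, with a median log2 difference of 0.57. In adherent cells with PBS, 16 of 18 were lower in Ifngr1-KO cells and none was higher, with a median of -0.61. Over the 32 members, 23 were higher and 1 lower in ULA cells, where 24.5% of tested genes were higher and 25.6% lower, and 2 were higher and 22 lower in adherent cells, where 20.1% were higher and 23.9% lower. The values per library are those given above, with the Ifngr1-KO and sgNTC groups now set side by side within a plate type.

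**Figure D4:**
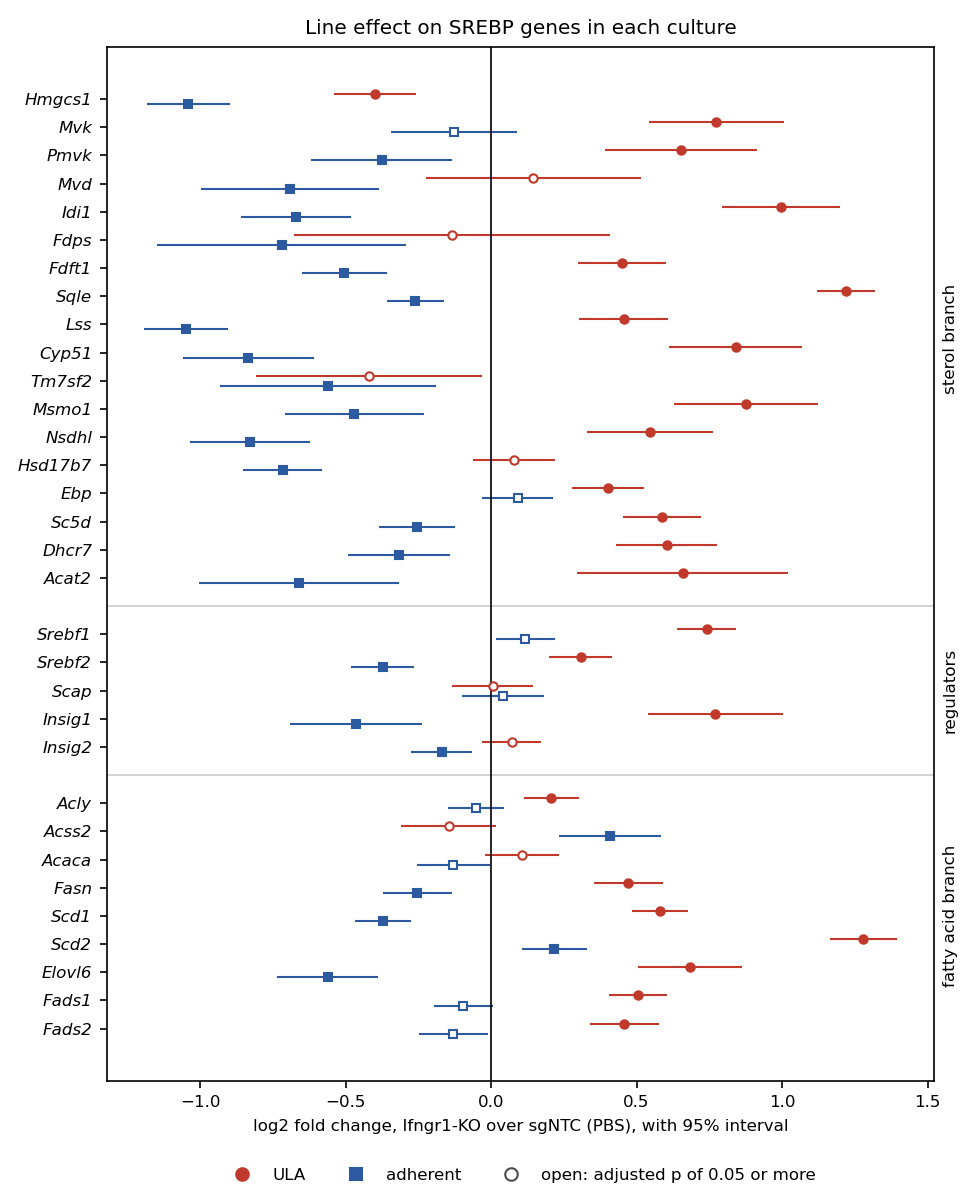
Log2 fold change of Ifngr1-KO over sgNTC cells in PBS for the 32 genes, with 95% intervals from the edgeR fit, in ULA cells (circles) and adherent cells (squares), with open symbols for an adjusted p of 0.05 or more. Most circles lie right of 0 and most squares left of it, with Sqle at 1.22 in ULA and -0.26 in adherent cells, and Hmgcs1 left of 0 in both.

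In ULA cells the largest line differences of the sterol branch were those of Sqle, 1.22 ± 0.05 (adjusted p = 1.69e-20), Idi1, 0.99 ± 0.10 (adjusted p = 2.79e-09), Msmo1, 0.88 ± 0.12 (adjusted p = 4.07e-06) and Cyp51, 0.84 ± 0.11 (adjusted p = 2.06e-06). The libraries of the lines did not overlap for any of these genes. Mvd, Fdps, Tm7sf2 and Hsd17b7 were not called in ULA cells, with 0.14 ± 0.18, -0.13 ± 0.27, -0.42 ± 0.19 and 0.08 ± 0.07. In adherent cells the largest were those of Lss, -1.05 ± 0.07 (adjusted p = 5.21e-14), Hmgcs1, -1.04 ± 0.07 (adjusted p = 1.28e-13), Cyp51, -0.83 ± 0.11 (adjusted p = 2.53e-06) and Nsdhl, -0.83 ± 0.10 (adjusted p = 1.08e-07). Mvk and Ebp were not called there, at -0.13 ± 0.11 and 0.09 ± 0.06. Hmgcs1 was lower in Ifngr1-KO cells of both cultures, with -0.40 ± 0.07 in ULA cells (adjusted p = 1.15e-05).

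In ULA cells Scd2 had the largest line difference of the fatty acid genes, higher in Ifngr1-KO cells by 1.28 ± 0.06 (adjusted p = 2.11e-19). In adherent cells it was higher by 0.22 ± 0.06 (adjusted p = 0.00168), a smaller difference than those of Elovl6, Acss2, Scd1 and Fasn. Elovl6 was higher by 0.68 ± 0.09 in ULA cells (adjusted p = 1.68e-07) and lower in adherent cells, at -0.56 ± 0.08 (adjusted p = 3.77e-06). Scd1 showed the same reversal, with 0.58 ± 0.05 in ULA cells (adjusted p = 1.94e-12) and -0.37 ± 0.05 in adherent cells (adjusted p = 6.32e-08). Fasn was higher by 0.47 ± 0.06 in ULA cells (adjusted p = 2.47e-08) and lower in adherent cells, at -0.25 ± 0.06 (adjusted p = 0.000544). Acss2 was higher in Ifngr1-KO cells only among adherent cells, at 0.41 ± 0.09 (adjusted p = 0.000228), against -0.15 ± 0.08 in ULA cells (adjusted p = 0.132). Of the regulators, Insig1 was higher by 0.77 ± 0.11 in ULA cells (adjusted p = 7.56e-06) and lower in adherent cells, at -0.46 ± 0.11 (adjusted p = 0.00159). Srebf2 followed it, with 0.31 ± 0.05 in ULA cells (adjusted p = 1.11e-05) and -0.37 ± 0.05 in adherent cells (adjusted p = 5.94e-07). Srebf1 was higher by 0.74 ± 0.05 in ULA cells (adjusted p = 1.46e-14), and its adherent value of 0.12 ± 0.05 did not pass (adjusted p = 0.0512). That Srebf1 value was called by DESeq2 (adjusted p = 0.0243), with library-total scaling (0.00649), with a replicate block (0.0497) and without replicate 1 of the Ifngr1-KO group (0.00741) or replicate 3 of the sgNTC group (0.0163). Fads2, not called in adherent cells, was called there with both libraries that stood apart left out, at -0.15 (adjusted p = 0.0268). Acaca, also not called there, was called without replicate 2 of the sgNTC group, at -0.16 (adjusted p = 0.0479). For Insig2 the values were 0.07 ± 0.05 in ULA cells and -0.17 ± 0.05 in adherent cells, of which the adherent one was called (adjusted p = 0.00776) and lost that call without any of 3 libraries (adjusted p from 0.0506 to 0.0784), with library-total scaling (0.0559) and with no filter on low counts (0.0634). The adherent calls of Pmvk, Fdps and Tm7sf2 were also lost without 1 library, with adjusted p up to 0.112 for Pmvk, 0.0519 for Fdps and 0.0746 for Tm7sf2. Some ULA values not called with all libraries were called by edgeR at other settings. Acss2 was called with only the compared groups (-0.14, adjusted p = 0.041). Tm7sf2 was called without Ifngr1-KO replicate 2 (-0.53, 0.0426) and Acaca without sgNTC replicate 1 (0.18, 0.0347). Insig2 was called without Ifngr1-KO replicate 1 (0.15, 0.0217) or sgNTC replicate 2 (0.14, 0.0406).

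Levels of different members were compared per kilobase of exon. In sgNTC adherent cells with PBS, Scd2 stood first at 959 ± 51.6 CPM per kilobase (SD, n = 3), followed by Fads1 at 167 ± 3.85, Scd1 at 153 ± 2.97 and Insig1 at 133 ± 2.47, and Cyp51 led the sterol branch at 122 ± 0.961. Acss2 stood last there at 1.51 ± 0.0345, next to Tm7sf2 at 1.67 ± 0.167, and those values differed by about the SD of Tm7sf2. The exon length includes bases shared with other genes, 9.1% for Acss2, 26.7% for Fdps and 47.2% for Tm7sf2. Reads that overlap more than 1 gene were not counted, so the SD does not cover all the uncertainty of this order. In sgNTC ULA cells Scd2 still stood first at 516 ± 38.0, but Hmgcs1 came second at 121 ± 5.63 and Insig2, at 59.5 ± 3.80, had passed Insig1, at 24.5 ± 2.81. Mvd stood 13th of the 32 in sgNTC adherent cells at 47.4 ± 2.51 CPM per kilobase and 27th in sgNTC ULA cells at 4.56 ± 0.622. In Ifngr1-KO ULA cells Scd2 reached 1253 ± 30.5, and Sqle stood 7th at 46.5 ± 1.57, against 14th at 19.97 ± 1.10 in sgNTC ULA cells.

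IFN-gamma moved none of the 32 genes past the threshold in either line or culture. No member was called in ULA or adherent Ifngr1-KO cells or in ULA or adherent sgNTC cells by edgeR. Among all tested genes, 0% were called in Ifngr1-KO ULA cells, 0.00684% in Ifngr1-KO adherent cells, 2.05% in sgNTC ULA cells and 0.315% in sgNTC adherent cells, so calls were rare in general. At an unadjusted p under 0.05 there were 8 members in Ifngr1-KO ULA cells, 3 in Ifngr1-KO adherent cells, 6 in sgNTC ULA cells and 1 in sgNTC adherent cells, where such a p was held by 7.54% of all tested genes in Ifngr1-KO ULA, 8.31% in Ifngr1-KO adherent, 13.2% in sgNTC ULA and 7.32% in sgNTC adherent cells. With single libraries left out, the count of members ran from 1 to 19 in Ifngr1-KO ULA, from 0 to 4 in Ifngr1-KO adherent, from 1 to 5 in sgNTC ULA and from 0 to 2 in sgNTC adherent cells. Of these fits, the share of all tested genes was taken only for the one with 19, given below. By DESeq2 no member was called in these 4 comparisons either. The 95% intervals of all 32 members lay within 2-fold in each direction, and all 32 lay within ±0.5 on the log2 scale in the adherent cells of each line. In sgNTC ULA cells the fitted log2 values ran from -0.20 for Acss2 to 0.24 for Idi1, and in sgNTC adherent cells from -0.13 for Acss2 to 0.17 for Msmo1. In Ifngr1-KO ULA cells they ran from -0.18 for Hsd17b7 to 0.20 for Idi1, and in Ifngr1-KO adherent cells from -0.15 for Msmo1 to 0.16 for Scap.

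**Figure D5:**
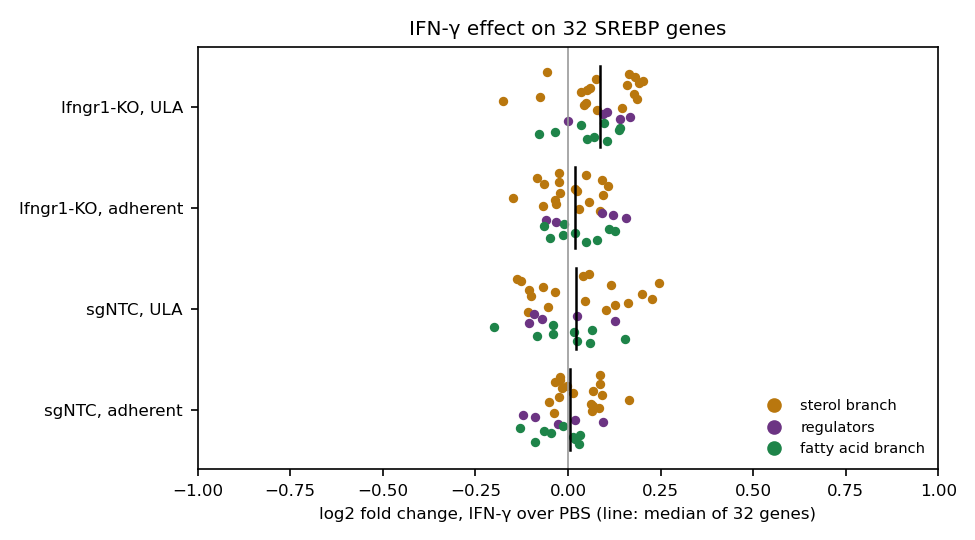
Log2 fold change of IFN-gamma over PBS for the 32 genes in each line and culture, each point a gene coloured by branch and each vertical line the median. All points lie between -0.20 and 0.24, and no gene was called.

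Idi1, the highest of those values, had 22.5, 23.3 and 23.7 CPM in sgNTC ULA cells with IFN-gamma, against 18.8, 17.6 and 22.4 CPM with PBS. Its libraries did not overlap, and its adjusted p was 0.262. Acss2, the lowest in sgNTC ULA cells, had 47.6, 43.1 and 41.6 CPM with IFN-gamma, against 51.1, 50.7 and 50.1 CPM with PBS, with an adjusted p of 0.236. Msmo1, the highest in sgNTC adherent cells, had 473, 526 and 515 CPM with IFN-gamma, against 452, 473 and 424 CPM with PBS, with an adjusted p of 0.81. Tests of whether the response to IFN-gamma differed between cultures in sgNTC cells, or between lines in either culture, called no member, where 0.0479% of all genes were called between cultures, 1.33% between lines in ULA cells and 0.13% between lines in adherent cells. The smallest adjusted p was that of Hsd17b7 between lines in ULA cells, 0.0702, at -0.34 ± 0.10. The library of Ifngr1-KO ULA cells with IFN-gamma that stood apart held the lowest values of its group for most members. Without it, 28 of 32 members had a positive IFN-gamma value in Ifngr1-KO ULA cells with a median of 0.18, against 26 of 32 and 0.087 with it, and none was called either way. Without it 19 members had an unadjusted p under 0.05, all of them positive, where 9.98% of all tested genes had such a p, against 8 members, 7 of them positive, with it. Without replicate 3 of the Ifngr1-KO ULA group with PBS there were 13. The share of all tested genes was not taken for that fit, so whether 13 is unusual there was not tested. In the test of whether the IFN-gamma response differed between lines in ULA cells, edgeR called Fdft1 at 0.35 (adjusted p = 0.0364). That call was made without replicate 2 of the Ifngr1-KO ULA group with IFN-gamma.

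Neighbouring genes of sterol balance were taken from lists written from general knowledge. Stard4, a sterol carrier, had 46.9, 55.6 and 55.5 CPM in Ifngr1-KO ULA cells, against 87.2, 87.05 and 85.7 CPM in Ifngr1-KO adherent cells. In sgNTC cells Stard4 had 37.6, 37.4 and 39.95 CPM in sgNTC ULA cells, against 150.3, 132 and 153 CPM in sgNTC adherent cells. It was lower in ULA cells of both lines, most so in sgNTC cells. On the log2 scale Stard4 fell by 0.72 in Ifngr1-KO cells (adjusted p = 8.77e-10) and by 1.92 in sgNTC cells (adjusted p = 1.75e-20), and the difference between the lines was 1.203 ± 0.11 (adjusted p = 3.11e-10). Npc1 and Npc2 encode the proteins that carry cholesterol out of lysosomes. In Ifngr1-KO ULA cells Npc1 fell, at -0.67 ± 0.07 (adjusted p = 7.06e-11), and Npc2 rose, at 0.48 ± 0.05 (adjusted p = 3.21e-11). The sgNTC ULA cells went the same way by edgeR. There Npc1 had -1.43 ± 0.07 (adjusted p = 8.27e-20) and Npc2 0.55 ± 0.05 (adjusted p = 1.2e-12).

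The counts of neighbouring genes below stand beside 31.1% of all tested genes that fell and 29.6% that rose in Ifngr1-KO ULA cells, and 32.1% that fell and 32.5% that rose in sgNTC ULA cells. Of 10 genes for SREBP proteases and sterol-regulated degradation, 5 fell and 5 rose in Ifngr1-KO ULA cells and 4 fell and 5 rose in sgNTC ULA cells. Erlin1, an endoplasmic reticulum scaffold that restrains SREBP, fell by 1.39 in Ifngr1-KO cells (adjusted p = 1.85e-19) and by 2.20 in sgNTC cells (adjusted p = 6.15e-25) on the log2 scale. Rnf145, a ubiquitin ligase that acts on SCAP, rose by 1.08 ± 0.05 in Ifngr1-KO cells and 1.06 ± 0.05 in sgNTC cells. Of 7 oxysterol and esterification genes 5 were tested, of which 3 fell and 1 rose in Ifngr1-KO ULA cells and 2 fell and 2 rose in sgNTC ULA cells. Soat1, which esterifies cholesterol for storage, had 500.2, 492 and 484 CPM in Ifngr1-KO ULA cells, against 339.7, 356 and 345 CPM in Ifngr1-KO adherent cells. In sgNTC cells Soat1 had 1714, 1707 and 1590 CPM in sgNTC ULA cells, against 581, 557 and 595 CPM in sgNTC adherent cells. It rose in ULA cells of both lines and was lower in Ifngr1-KO than in sgNTC cells of each culture, at -1.76 ± 0.05 in ULA (adjusted p = 4.28e-26) and -0.73 ± 0.04 in adherent cells (adjusted p = 1.74e-15). Of 8 genes of LXR signalling and sterol efflux only 4 passed the filter, of which 1 rose and 1 fell in Ifngr1-KO ULA cells and 3 rose and 1 fell in sgNTC ULA cells. Apoe, a carrier of secreted cholesterol, was the one that fell in each line. Of 12 genes of isoprenoid use, 7 fell in Ifngr1-KO and 9 fell in sgNTC ULA cells and none rose, with medians of -0.24 in Ifngr1-KO and -0.26 in sgNTC cells.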

How the data were processed

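Poly-A RNA-seq of 24 libraries was measured as counts per gene. Per the file headers, the authors counted reads on exons with featureCounts 2.1.1, each mate separately, with no strand, multi-mapping or overlap option, and deposited the counts with each gene's summed exon length in bases (another deposited column). Trimmomatic, HISAT2, SAMtools, Subread 2.1.1 and DESeq2 are named, with no role, in the submitters' processing notes. Because both mates count, counts exceed fragments.

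Here CPM (counts per 1000000 of the library total after TMM scaling) describes levels, and CPM per kilobase divides by exon length. Tests used edgeR 4.0.16 (R 4.3.3): TMM scaling, filterByExpr with a minimum count of 10, a quasi-likelihood fit of all 24 libraries with a mean per group (16 residual degrees of freedom), two-sided tests and Benjamini-Hochberg adjustment over 14622 genes, with calls under 0.05. The SE is the log2 fold change over the square root of F, and intervals are 95%. The script was tested on simulated data.

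The members, the neighbouring lists and the rule for named genes were chosen with earlier results of these data known. That rule gives, per comparison, the called members with the largest change (at most 4 each way in the sterol and 3 in the fatty acid branch), the 5 regulators, members called in an interaction, and up to 3 called genes of smallest adjusted p per neighbouring list. Alternatives were DESeq2 1.42.0, library-total scaling, no filter, halved counts, only the compared groups, a replicate block and each library left out. Same-numbered libraries did not deviate together, so numbers were not used as pairs. Nothing in the labels ties replicates to separate starting cultures beyond the name biological replicate, so p-values measure the spread between these libraries. Some results of the neighbouring genes are not reported here.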

Additional observations from a re-analysis of the deposited data

Results flagged for a closer look

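For 29 of the 32 genes the culture effect in PBS differed between the lines by edgeR's test of that difference (adjusted p under 0.05), 28 with a positive and 1 with a negative difference, where 16.6% of all tested genes were called positive and 11.2% negative. The calls of Ebp, Insig2, Acly and Acaca were lost when counts were scaled by library totals. Values are the log2 culture effect in Ifngr1-KO cells minus that in sgNTC cells. In the mevalonate steps the difference was 1.32 for Acat2, 0.64 for Hmgcs1, 0.90 for Mvk, 1.03 for Pmvk, 0.84 for Mvd and 1.67 for Idi1. In the squalene steps it was 0.96 for Fdft1, 1.48 for Sqle and 1.50 for Lss. After lanosterol it was 1.67 for Cyp51, 1.34 for Msmo1, 1.38 for Nsdhl, 0.79 for Hsd17b7, 0.31 for Ebp, 0.84 for Sc5d and 0.92 for Dhcr7.

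Among the regulators it was 0.62 for Srebf1, 0.68 for Srebf2, 1.24 for Insig1 and 0.24 for Insig2. In the fatty acid branch it was 0.26 for Acly, -0.55 for Acss2, 0.24 for Acaca, 0.72 for Fasn, 0.95 for Scd1, 1.06 for Scd2, 1.25 for Elovl6, 0.60 for Fads1 and 0.59 for Fads2. Groups of 3 libraries were not tested for single outlying values.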

How the results depend on the processing

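Across the alternatives, the number of the 32 genes called for the culture effect in PBS ranged from 29 to 32 in Ifngr1-KO cells and from 31 to 32 in sgNTC cells, and with IFN-gamma from 27 to 31 in Ifngr1-KO and from 30 to 31 in sgNTC cells. For the line effect it ranged from 24 to 25 in ULA and from 21 to 25 in adherent cells, and for the line difference of the culture effect from 25 to 30. Scaling by library totals moved the median of all genes for the sgNTC culture effect to 0.13 in PBS, against 0.031 with TMM, and to 0.16 with IFN-gamma, against 0.047. Under that scaling Ebp, Insig2, Acly and Acaca lost their call of a line difference. The IFN-gamma effect in sgNTC ULA cells called 1 gene with no filter on low counts (Msmo1) and 1 with both libraries that stood apart left out (Cyp51), an alternative chosen after seeing the data. The line difference of the IFN-gamma effect called 1 gene in adherent cells with no filter (Msmo1). In ULA cells it called 1 by DESeq2 (Hsd17b7), 1 with no filter (Msmo1), 0 to 1 with single libraries left out (Fdft1), and 3 with both libraries left out (Pmvk, Fdft1 and Srebf1). The cause was not tested. Signs reversed only for values never called by edgeR with all libraries. With single libraries left out, Scd1 in Ifngr1-KO cells with IFN-gamma ranged from -0.020 to 0.056, the adherent line effect from -0.19 to 0.0020 for Mvk and from -0.027 to 0.13 for Scap, the ULA line effect of Fdps from -0.51 to 0.18 (0.051 without sgNTC replicate 1), and the line difference of Scap from -0.086 to 0.068 (0.00090 and 0.010 without 2 other libraries). The line effect changed sign with library totals for Acly in adherent cells (0.0010) and for Scap in ULA cells (-0.035), and with halved counts for Scap in ULA cells (-0.0019). With replicate number as a block, 30 of the 32 genes were called for the culture effect in Ifngr1-KO cells with PBS, 32 in sgNTC cells with PBS, 24 for the line effect in ULA cells, 25 in adherent cells, and 29 for the line difference. In the same order, 8833, 9416, 7328, 6385 and 4064 of all tested genes were called with that block. The correlations of same-numbered deviations ran from -0.061 to 0.052. Depth limits mainly Fdps and Tm7sf2, at under 15 CPM in every PBS library.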

Other observations

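Genes of triglyceride storage and breakdown are given beside 31.1% of all tested genes that fell and 29.6% that rose in Ifngr1-KO ULA cells with PBS, and 32.1% that fell and 32.5% that rose in sgNTC ULA cells. Of 13 listed genes 11 were tested, of which 9 rose and none fell in Ifngr1-KO cells with PBS and 9 rose and 1 fell in sgNTC cells, with medians of 0.51 in Ifngr1-KO and 0.41 in sgNTC cells on the log2 scale. Hormone-sensitive lipase, Lipe, rose by 1.62 ± 0.10 in Ifngr1-KO cells (edgeR adjusted p = 4.32e-16) and 2.16 ± 0.10 in sgNTC cells (adjusted p = 1.7e-19) on the log2 scale. The lipid droplet coat gene Plin3 rose by 0.51 ± 0.05 in Ifngr1-KO and 0.79 ± 0.05 in sgNTC cells. Of 7 genes of NADPH and citrate supply, 3 rose and 3 fell in each line. Malic enzyme, Me1, rose by 0.81 ± 0.06 in Ifngr1-KO and 0.89 ± 0.06 in sgNTC cells, while Mid1ip1, an activator of acetyl-CoA carboxylase, had -1.34 ± 0.08 in Ifngr1-KO cells (adjusted p = 4.37e-17) and -1.66 ± 0.08 in sgNTC cells (adjusted p = 9.03e-20).

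Of 11 genes of fatty acid activation and elongation, 4 rose and 1 fell in Ifngr1-KO ULA cells and 4 rose and 6 fell in sgNTC ULA cells, so the share that rose was near that of all tested genes in both lines. The culture effect on Acsl5, an acyl-CoA synthetase, differed between the lines by 1.04 ± 0.08 (adjusted p = 1.9e-12), and that on Acsl3 by 0.86 ± 0.07 (adjusted p = 5.6e-11). In sgNTC ULA cells IFN-gamma raised Soat1 by 0.28 ± 0.04 (adjusted p = 9.93e-05) and Elovl5, an elongase of polyunsaturated fatty acids, by 0.20 ± 0.05 (adjusted p = 0.0239).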
